A study of Mus musculus with 12 samples.

Results

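The p53 target genes described here are 32 listed mouse genes, of the 47643 genes in the count files. They were taken by name from a list of targets of the transcription factor p53, and their control by p53 was not tested here. They were grouped by role: 6 act in growth arrest, 14 in cell death and 2 in feedback on p53. A further 5 act in DNA repair or nucleotide supply, and 5 in metabolism, autophagy or at the cell surface. In unstressed cells p53 is kept scarce by Mdm2, a ubiquitin ligase that marks it for destruction. DNA damage or oncogene activity can stabilise p53, which then binds near its target genes and raises genes that stop the cell cycle, repair DNA or start apoptosis. It also raises Mdm2, its own inhibitor, so Mdm2 RNA is a commonly used readout of p53 activity.

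RNA was measured in C3H/10T1/2, a mouse embryonic mesenchymal line of fibroblast shape that can form bone, cartilage or fat. Every group received plasmid DNA, at 0.5 µg per cm2, with the non-viral reagent TurboFect, and RNA was taken 3 days later. BMP2ADV cells, the reference, received a plasmid for bone morphogenetic protein 2 (BMP2), and BMP2ADV20a, BMP2ADV148b and BMP2ADV590 cells received a hybrid plasmid for BMP2 and miR-20a, miR-148b or miR-590. Each group has 3 libraries, and the labels do not say whether these came from separate cultures, so p-values measure the spread between these samples, which may be technical. No mock-transfected or untransfected cells were analysed here, so the response of the p53 target genes to transfection itself was not tested. Transfection was transient, and the labels do not state the share of cells that took up plasmid.

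Reads assigned to genes numbered 9236431 to 14727288 per library. Levels are given as CPM, the share of gene counts on the usual counts-per-million scale, adjusted between libraries by TMM, and levels of different genes are not compared. The 10 mesenchymal and fibroblast markers were all measured, and they summed to 18328 to 21711 CPM per library. Markers of other cell types were scarce: the summed level per library was 5.22 to 11.9 CPM for 4 endothelial, 1.16 to 3.5 CPM for 4 epithelial, 3.15 to 7.78 CPM for 5 macrophage, 8.62 to 27.3 CPM for 4 neural and 9.15 to 16.9 CPM for 4 skeletal muscle markers. Most of this came from Tek, Cdh1, Cd14, Tubb3 and Acta1, while Cdh5, Adgre1, Sox10 and Myod1 had 0 counts in all 12 libraries. The BMP2ADV590 libraries stood apart on the first principal component of all tested genes, which held 18.0% of the variance, at 21.8 to 30.2 against -25.3 to 6.42 in the other 9 libraries. BMP2ADV590 replicate 2 stood apart from the others of its group on the second, at -23.4 against 22.6 and 9.63. These are bulk measurements, in which fewer cells with a transcript and less of it per cell cannot be told apart.

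All 32 p53 target genes passed the filter on low counts and were tested among 13229 genes with edgeR's quasi-likelihood test. A gene is called where its Benjamini-Hochberg adjusted p is under 0.05, and a log2 fold change is the first group named minus the second.

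The promoters of several members hold a match to the 10-base unit of the p53 binding sequence, and some of these stretches are shown because they are the letters that the factor could read. A p53 response element is built from a pair of 10-base motifs, called decamers here and matched to the known p53 consensus, which reads the same on both strands. RefSeq windows from 250 bases before to 50 after an annotated start (build GRCm38.p6) could be matched for 23 of the 32 members. At least 1 decamer lay in the windows of 9 of these 23, which is 39.1%, against 782 of the 9569 tested genes with a window, or 8.17%. A pair of decamers no more than 13 bases apart lay in 1 member, Cdkn1a, and in 4 of those 9569 genes, or 0.0418%, Cdkn1a among them. Some genes have several windows, and a match in any of them counted. The Cdkn1a pair lay in the window of 1 start, and the window at chr17:29093519-29093818 held no decamer. Each stretch of 30 bases below is given in the direction of its gene, with the decamer in capitals. Only exact matches were counted. The 10 bases that follow the second Cdkn1a decamer differ from the consensus in 1 base, so they were not counted and stay in lower case. Which of these 10-base units p53 could use as a pair was not tested. The first and second Cdkn1a stretch lie at chr17:29090896-29090925 and chr17:29090918-29090947 (plus strand). Those of Mdm2, Bax and Ccng1 lie at chr10:117710925-117710954, chr7:45467080-45467109 and chr11:40755452-40755481 (all minus strand), and that of Sesn1 at chr10:41887256-41887285 (plus strand).

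Cdkn1a, first: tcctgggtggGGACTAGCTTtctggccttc

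Cdkn1a, second: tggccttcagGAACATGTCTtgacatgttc

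Mdm2: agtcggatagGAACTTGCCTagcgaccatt

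Bax: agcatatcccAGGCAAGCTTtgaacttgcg

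Ccng1: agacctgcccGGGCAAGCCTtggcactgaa

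Sesn1: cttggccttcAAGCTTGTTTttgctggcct

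The other 4 members with a decamer were Aen, Ei24, Polk and Ppm1d. A match describes the letters only, and binding of p53 was not measured. Sites outside the windows, such as those in introns, were not searched. A window without a decamer therefore does not show that the gene lacks a p53 site. Of the members with a decamer, Mdm2 and Ccng1 fell in BMP2ADV590. Cdkn1a, Bax, Sesn1 and the 4 not shown were not called there by edgeR with all 12 libraries. Of the members whose windows held no decamer, Plk2, Plk3, Bbc3, Fas, Ercc5, Epha2 and Cd80 fell there and Trp53inp2 rose. Apaf1, Dcxr, Eda2r, Phlda3, Pidd1 and Tigar, also without one, were not called.

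The mature miRNAs named by 2 of the plasmids are shown with their seed, bases 2 to 8, in capitals, because the seed pairs with sites in target transcripts. They come from RefSeq (GRCm38.p6), at chr14:115044183-115044205 for miR-20a-5p and chr15:103285185-103285206 for miR-148b-3p, both on the plus strand. The labels do not name the arm on each plasmid.

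miR-20a-5p: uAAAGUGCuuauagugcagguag

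miR-148b-3p: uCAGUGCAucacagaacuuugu

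The 7-base complement of the miR-20a seed is GCACTTT and that of the miR-148b seed is TGCACTG. Both were searched, on the transcript strand, in the longest annotated 3' UTR of each gene. The miR-20a site occurred in 6 of 32 members, which is 18.8%, and in 1744 of 11583 tested genes, or 15.1%. The miR-148b site occurred in 4 members, which is 12.5%, and in 1826 of those genes, or 15.8%. Some of the sites are shown with the seed match in capitals. Not shown are the miR-20a sites of Xpc, Trp53inp2 and Cd80. The miR-148b sites of Zmat3 and Rrm2b and the second in Trp53inp1 are not shown either. The Cdkn1a, Ccng1 and Trp53inp1 sites for miR-20a lie at chr17:29099813-29099836 (plus strand), chr11:40749400-40749423 (minus strand) and chr4:11174211-11174234 (plus strand). The Bbc3 sites for miR-148b lie at chr7:16317392-16317415 and chr7:16318080-16318103 and the first of the pair in Trp53inp1 at chr4:11172432-11172455 (all plus strand).

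Cdkn1a, miR-20a: tcctcagacctgaataGCACTTTg

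Ccng1, miR-20a: ccaacatttcatgaatGCACTTTt

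Trp53inp1, miR-20a: cagaatgaacagcacaGCACTTTg

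Bbc3, miR-148b, first: gcccgggcagcctgggTGCACTGa

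Bbc3, miR-148b, second: tgtaagatactgtacaTGCACTGc

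Trp53inp1, miR-148b: ttacagtgttcttcaaTGCACTGa

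Most of the p53 target genes that changed did so in BMP2ADV590, and most of those fell. Against BMP2ADV, 9 of the 32 fell and 1 rose in BMP2ADV590, 3 fell in BMP2ADV20a and none was called in BMP2ADV148b. BMP2ADV590 also had the most calls over all 13229 tested genes: 1093 (8.26%), against 63 (0.476%) in BMP2ADV20a and 33 (0.249%) in BMP2ADV148b. Mdm2, Plk2 and Bbc3 fell in both BMP2ADV20a and BMP2ADV590, whereas Cdkn1a, the gene of the cell cycle inhibitor p21, passed no test in any comparison. The same 3 BMP2ADV libraries are the reference in all of these comparisons.

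The members were chosen with earlier results of these data known, so their comparison with all tested genes is a description. Set beside all tested genes, the 9 members called lower in BMP2ADV590 compare with 3.89% of genes called lower, and the 1 called higher with 4.37% called higher. The members' median log2 fold change there was -0.26, with 25 of 32 below 0, against a median of 0.00196 and 6577 of 13229 below 0 over all tested genes. In BMP2ADV20a the 3 members called lower compare with 0.378% of genes, and the median was -0.16, with 23 of 32 below 0, against a median of -0.00179 over all genes. In BMP2ADV148b none of the 32 was called by edgeR's quasi-likelihood test, where 0.249% of all genes were called in either direction. There 9 of the 32 members had an unadjusted p under 0.05 in edgeR's test, against 1115 of 13229 tested genes. Limma-voom called none, and DESeq2, which gave an adjusted p for 22 of the 32, called none. The median in BMP2ADV148b was -0.03, with 17 of 32 below 0. A test of any difference among the 4 groups called 7 members, or 21.9%, against 6.25% of all tested genes: Plk2, Bbc3, Fas, Trp53inp1, Mdm2, Trp53inp2 and Epha2.

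The single libraries gave counts in the same order. All 3 BMP2ADV590 libraries lay below all 3 BMP2ADV libraries for 15 of 32 members, against 12.5% of all tested genes. All 3 BMP2ADV20a libraries did so for 11 members, against 8.79% of genes. For BMP2ADV148b, 2 members lay wholly above and 4 wholly below, a share near the 14.7% of all genes that did not overlap in either direction. Whether these shares differ from those of other gene lists was not tested.

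**Figure D1:**
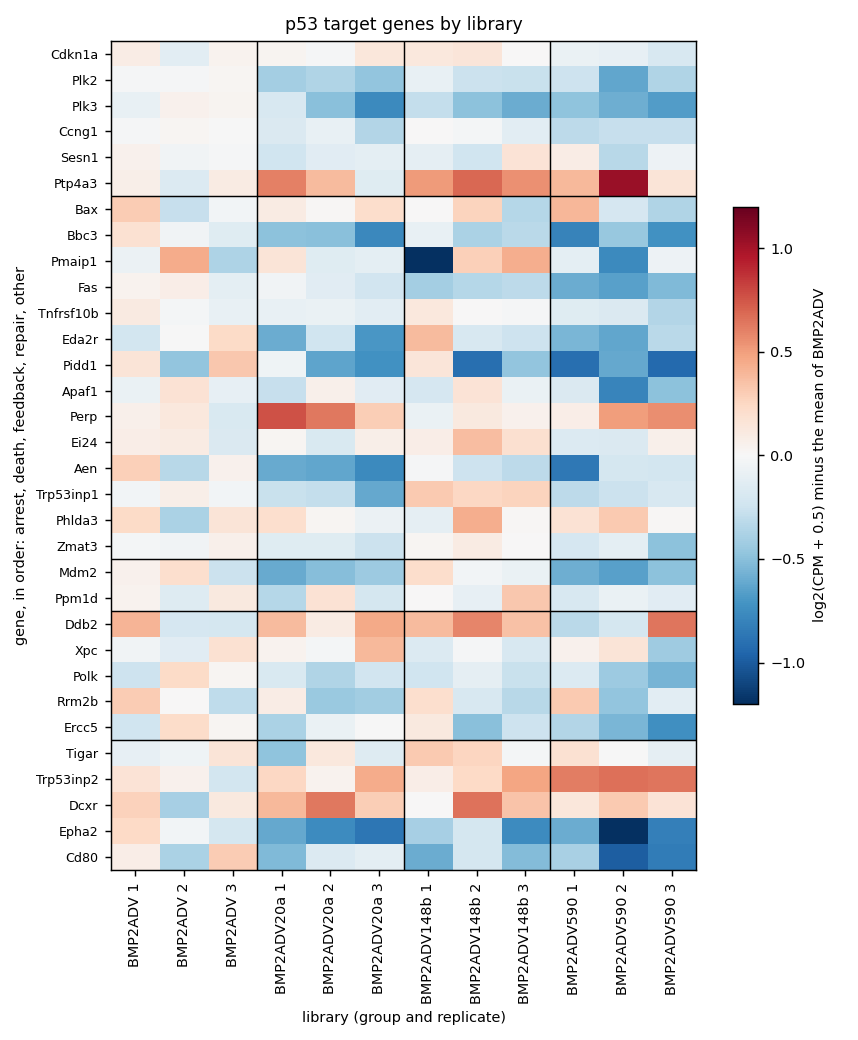
Level of each of the 32 p53 target genes (rows, ordered by role) in each of the 12 libraries (columns), as log2(CPM + 0.5) minus the mean of the 3 BMP2ADV libraries. Blue is lower and red higher, 2 cells lie beyond the colour limit of 1.2, and the rows of Plk2, Bbc3 and Mdm2 are blue in all BMP2ADV20a and BMP2ADV590 libraries.

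Among the 6 arrest members, Plk2, Plk3 and Ccng1 fell in BMP2ADV590 and Plk2 also in BMP2ADV20a, while Cdkn1a lay between 311 and 392 CPM in all 12 libraries. The arrest members had a median log2 fold change of -0.21 in BMP2ADV590, -0.19 in BMP2ADV20a and -0.05 in BMP2ADV148b.

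Cdkn1a encodes p21, which inhibits cyclin-dependent kinases and is the main arrest gene of the pathway. Its level was 377, 326 and 366 CPM in BMP2ADV, 363, 352 and 389.7 CPM in BMP2ADV20a, 388, 392 and 358 CPM in BMP2ADV148b, and 336, 332 and 311 CPM in BMP2ADV590. The BMP2ADV range overlapped that of each hybrid group. Among the hybrid groups, every BMP2ADV590 library lay below every library of BMP2ADV20a and BMP2ADV148b. The log2 fold change of BMP2ADV590 was -0.17 against BMP2ADV20a (95% interval -0.33 to -0.01, edgeR adjusted p = 0.299). Against BMP2ADV148b it was -0.22 (-0.38 to -0.06, adjusted p = 0.119), and neither difference was called. The log2 fold change against BMP2ADV was 0.05 in BMP2ADV20a (95% interval -0.11 to 0.21), 0.09 in BMP2ADV148b (-0.07 to 0.25) and -0.13 in BMP2ADV590 (-0.28 to 0.03), and edgeR's adjusted p was 0.372 for the last.

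Plk2 (chr13:110395046-110400844) encodes a polo-like kinase of the centriole that p53 induces. It stood at 166, 167 and 172 CPM in BMP2ADV, at 127, 131 and 121 CPM in BMP2ADV20a, at 158, 140.4 and 140.0 CPM in BMP2ADV148b and at 141, 109 and 131 CPM in BMP2ADV590. All 9 hybrid libraries lay below the 3 BMP2ADV libraries. It fell by 0.42 on the log2 scale in BMP2ADV20a (SE 0.0891, edgeR adjusted p = 0.0322) and by 0.40 in BMP2ADV590 (SE 0.0893, adjusted p = 0.0052). In BMP2ADV148b the log2 fold change was -0.20 (adjusted p = 0.541).

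Plk3 (chr4:117128655-117133963) encodes a related polo-like kinase of the stress response. Its level was 17.1, 18.8 and 18.6 CPM in BMP2ADV and 12.8, 11.9 and 11.2 CPM in BMP2ADV590. The BMP2ADV20a libraries held 15.9, 12.6 and 10.5 CPM and the BMP2ADV148b libraries 14.8, 12.7 and 11.9 CPM. Here too all 9 hybrid libraries lay below the BMP2ADV libraries, and the decrease passed the test in BMP2ADV590, by 0.59 on the log2 scale (SE 0.167, edgeR adjusted p = 0.0272). The log2 fold change was -0.47 in BMP2ADV20a (adjusted p = 0.307) and -0.46 in BMP2ADV148b (adjusted p = 0.401).

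Ccng1 (chr11:40748552-40755311) encodes cyclin G1, which brings a phosphatase to Mdm2 and so also belongs to the feedback on p53. Its level was 235, 241 and 236 CPM in BMP2ADV, 210.2, 223 and 186 CPM in BMP2ADV20a, 239, 233 and 218 CPM in BMP2ADV148b and 191, 196 and 196 CPM in BMP2ADV590. Both the BMP2ADV20a and the BMP2ADV590 libraries lay below those of BMP2ADV. It fell by 0.29 in BMP2ADV590 on the log2 scale (SE 0.0776, edgeR adjusted p = 0.0211), and the log2 fold change was -0.20 in BMP2ADV20a (adjusted p = 0.363).

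The remaining arrest members passed no test. Sesn1, a sestrin that restrains mTORC1, stayed between 9.14 and 13.1 CPM in all libraries, with log2 fold changes of -0.17, -0.06 and -0.09 in BMP2ADV20a, BMP2ADV148b and BMP2ADV590. Ptp4a3, a phosphatase, had positive values of 0.34, 0.62 and 0.60 in the same order (adjusted p = 0.672, 0.448 and 0.122 in edgeR), with BMP2ADV at 6.40 to 7.75 CPM and BMP2ADV590 at 8.11 to 15.3 CPM. The size of the Plk3 and Ccng1 decreases changed little on leaving out any 1 library (-0.66 to -0.55 and -0.30 to -0.28 on the log2 scale), but their calls did not always hold. Plk3 was no longer called without BMP2ADV replicate 2 or 3 or BMP2ADV590 replicate 2 or 3, and Ccng1 without BMP2ADV replicate 2 or 3 or BMP2ADV590 replicate 1 or 3, with adjusted p up to 0.0985 and 0.0684.

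**Figure D2:**
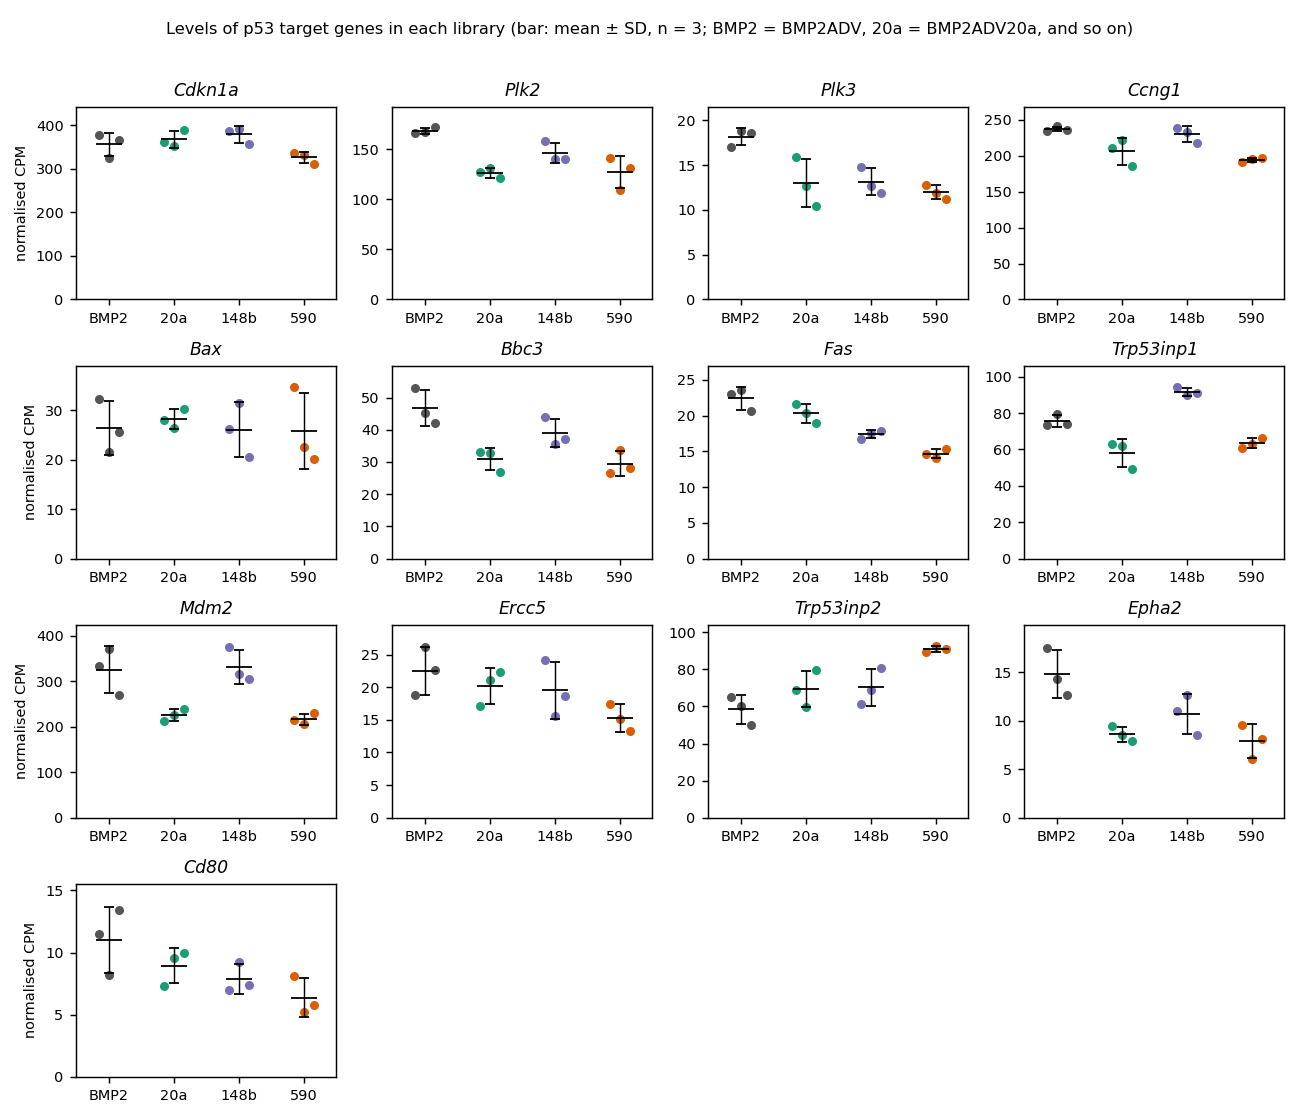
Normalised CPM in each library (points) with the mean and SD of the 3 libraries of a group (bars), for Cdkn1a, Bax and the 11 members called in at least 1 pairwise comparison. Mdm2 stands at 205 to 239 CPM in the 6 libraries of BMP2ADV20a and BMP2ADV590 and at 271 to 375 CPM in the other 6, while the groups overlap for Cdkn1a and Bax when set against BMP2ADV.

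Among the 14 death members, Bbc3 and Fas fell in BMP2ADV590 and Bbc3 in BMP2ADV20a. Bax, Pmaip1 and Apaf1, which act at or just after the mitochondrial step of apoptosis, passed no test with the filter and all 12 libraries. Apaf1 was called lower in BMP2ADV590 with no filter on low counts. The median log2 fold change of the death members was -0.35 in BMP2ADV590, with 12 of 14 below 0, -0.13 in BMP2ADV20a with 11 below 0, and -0.01 in BMP2ADV148b with 7 below 0.

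Bbc3 (chr7:16308393-16318205) encodes PUMA, a protein that binds and disables the survival proteins of the Bcl2 family. It stood at 53, 45.2 and 42.1 CPM in BMP2ADV, 33.0, 32.7 and 27.0 CPM in BMP2ADV20a, 43.8, 35.6 and 37.2 CPM in BMP2ADV148b, and 26.5, 33.8 and 28.0 CPM in BMP2ADV590. The BMP2ADV20a and BMP2ADV590 libraries lay below every BMP2ADV library, and the BMP2ADV148b libraries overlapped them. Bbc3 fell by 0.60 in BMP2ADV20a on the log2 scale (SE 0.127, edgeR adjusted p = 0.0306) and by 0.67 in BMP2ADV590 (SE 0.128, adjusted p = 0.0014). In BMP2ADV148b, for whose miRNA Bbc3 holds the pair of sites shown above, the log2 fold change was -0.27 (95% interval -0.53 to -0.01, adjusted p = 0.576).

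Fas (chr19:34290666-34327772), a death receptor of the cell surface, was at 23, 23.6 and 20.6 CPM in BMP2ADV and at 14.7, 14.1 and 15.3 CPM in BMP2ADV590, with no overlap. The BMP2ADV20a libraries held 21.7, 20.4 and 19.0 CPM and those of BMP2ADV148b 16.8, 17.6 and 17.9 CPM. It fell by 0.61 on the log2 scale in BMP2ADV590 (SE 0.135, edgeR adjusted p = 0.00507). The values of -0.14 in BMP2ADV20a and -0.36 in BMP2ADV148b did not pass (adjusted p = 0.781 and 0.409).

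Bax, the pore-forming effector of the mitochondrial pathway, was at 32.2, 21.5 and 25.5 CPM in BMP2ADV, 28.0, 26.3 and 30.3 CPM in BMP2ADV20a, 26.2, 31.5 and 20.5 CPM in BMP2ADV148b and 34.6, 22.6 and 20.2 CPM in BMP2ADV590. All groups overlapped. Its log2 fold changes against BMP2ADV were 0.09, -0.02 and -0.03, with 95% intervals of -0.29 to 0.46, -0.40 to 0.35 and -0.41 to 0.35. The intervals give the changes of Bax that these libraries allow, and not the smallest change that the test could have called.

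Trp53inp1 (chr4:11156431-11174379) encodes a nuclear protein that helps p53 towards death and autophagy, and it was the death member that set the hybrid groups apart. Its level was 73.7, 79.4 and 73.8 CPM in BMP2ADV, 62.7, 61.9 and 49.2 CPM in BMP2ADV20a, 94.1, 90.2 and 91.0 CPM in BMP2ADV148b and 60.8, 63.0 and 66.3 CPM in BMP2ADV590. The BMP2ADV148b libraries lay above, and the BMP2ADV20a and BMP2ADV590 libraries below, every BMP2ADV library. None of these values passed edgeR's test against BMP2ADV: the log2 fold change was -0.38 in BMP2ADV20a, 0.28 in BMP2ADV148b and -0.26 in BMP2ADV590 (edgeR adjusted p = 0.0913, 0.355 and 0.108). DESeq2, and edgeR with no filter on low counts, called it lower in BMP2ADV20a. Its differences between hybrid groups are given further on.

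The other death members passed no test against BMP2ADV with the filter on low counts and all 12 libraries. With no filter edgeR called Apaf1 and Pidd1 lower in BMP2ADV590, and Apaf1 was also called without BMP2ADV590 replicate 1. Among the values in BMP2ADV590 were those of Pidd1, of the complex that activates caspase-2, at -0.95 (edgeR adjusted p = 0.0823), the receptor Eda2r at -0.52 (adjusted p = 0.101), Apaf1, the scaffold of the apoptosome, at -0.47 (adjusted p = 0.0546) and the nuclease Aen at -0.45 (adjusted p = 0.157). Aen was at 11.8, 11.7 and 10.6 CPM in BMP2ADV20a, below the 22.4, 14.4 and 19.0 CPM of BMP2ADV, with a log2 fold change of -0.71 (adjusted p = 0.114, called with no filter or with only the groups compared). Perp, a tetraspan membrane protein of cell junctions, had the highest log2 fold change of the death members in BMP2ADV20a, with levels of 16.1, 14.6 and 11.4 CPM against 9.69, 10.1 and 8.06 CPM (log2 fold change 0.60, adjusted p = 0.219). Pmaip1, the gene of Noxa, was scarce, at 0 to 1.48 CPM, and its log2 fold change of -0.50 in BMP2ADV590 had a 95% interval from -2.01 to 1.01. Tnfrsf10b, a TRAIL receptor, Ei24, a protein of the endoplasmic reticulum, Phlda3, an Akt inhibitor, and Zmat3, an RNA-binding protein, had log2 fold changes of -0.26 to 0.21 in all 3 comparisons.

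Of the feedback members, Mdm2 was the member with the smallest adjusted p in both BMP2ADV20a and BMP2ADV590, and Ppm1d passed no test. Mdm2, the ligase that removes p53 (chr10:117688875-117710758) stood at 334, 372 and 271 CPM in BMP2ADV, 212, 227 and 239 CPM in BMP2ADV20a, 375, 316 and 306 CPM in BMP2ADV148b and 216, 205 and 229 CPM in BMP2ADV590. Every library of BMP2ADV20a and BMP2ADV590 lay below every library of BMP2ADV and BMP2ADV148b. Against BMP2ADV, Mdm2 fell by 0.53 in BMP2ADV20a on the log2 scale (SE 0.0991, edgeR adjusted p = 0.0126) and by 0.59 in BMP2ADV590 (SE 0.0993, adjusted p = 0.000424). In BMP2ADV148b the value was 0.03 (95% interval -0.18 to 0.23). Ppm1d, the phosphatase Wip1 that switches off the damage kinases and p53, was at 16.3 to 19.9 CPM in BMP2ADV and 15.9 to 17.3 CPM in BMP2ADV590, with log2 fold changes of -0.12, 0.09 and -0.14 in BMP2ADV20a, BMP2ADV148b and BMP2ADV590.

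The 3 calls in BMP2ADV20a did not hold on leaving out some single libraries, while those of Mdm2, Bbc3, Plk2 and Fas in BMP2ADV590 held whichever of the 12 libraries was left out. In BMP2ADV20a none of the 32 members was called by edgeR when replicate 1 or 2 of either group was left out, 1 (Mdm2) without BMP2ADV20a replicate 3, and 2 without BMP2ADV replicate 3 or BMP2ADV148b replicate 2, where Plk2 was lost. The highest adjusted p on leaving out a library was 0.153 for Mdm2, 0.214 for Bbc3 and 0.193 for Plk2, and the log2 fold changes stayed between -0.66 and -0.39.

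**Figure D3:**
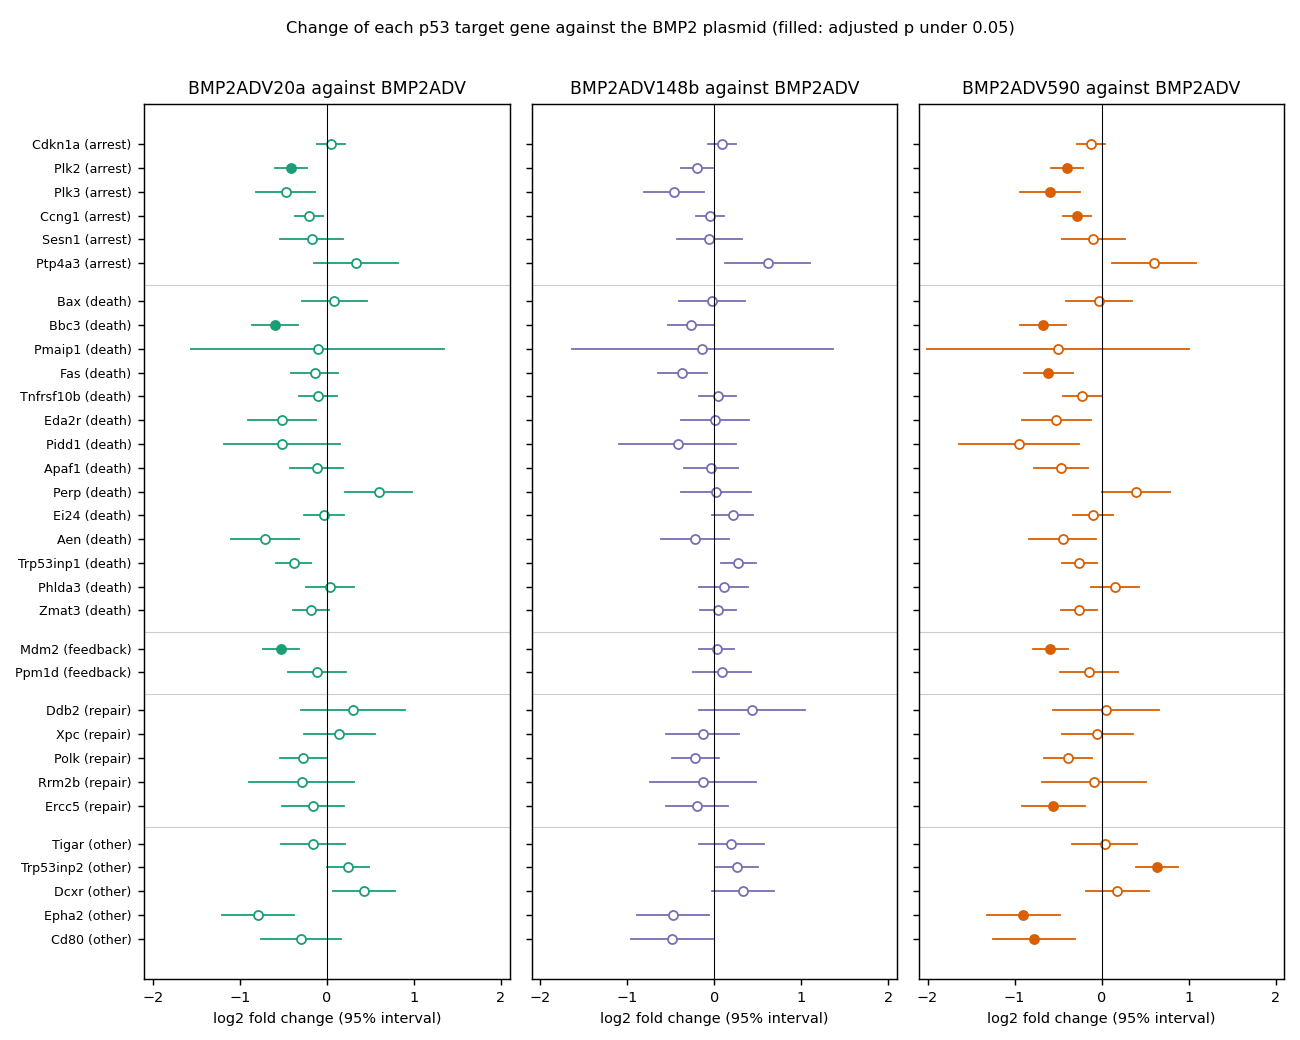
Log2 fold change of each p53 target gene in BMP2ADV20a, BMP2ADV148b and BMP2ADV590 against BMP2ADV, with the 95% interval of the edgeR fit (horizontal lines); filled points have an adjusted p under 0.05. In BMP2ADV590, 25 of 32 points lie below 0 and 10 are filled, 9 of them to the left, while no point is filled in BMP2ADV148b.

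Of the 5 repair and nucleotide supply members, Ercc5 fell in BMP2ADV590 and the others passed no test with all 12 libraries. Polk was called lower in BMP2ADV590 by edgeR without replicate 1 of BMP2ADV or of BMP2ADV590. Ercc5 (chr1:44147744-44181260), the XPG nuclease of nucleotide excision repair, was at 18.8, 26.1 and 22.6 CPM in BMP2ADV and 17.4, 15.1 and 13.2 CPM in BMP2ADV590, and it fell by 0.55 on the log2 scale (SE 0.173, edgeR adjusted p = 0.0485). Its log2 fold change was -0.16 in BMP2ADV20a and -0.20 in BMP2ADV148b, with overlapping libraries. The damage sensor genes Ddb2 and Xpc had values of 0.05 and -0.05 in BMP2ADV590, Rrm2b, a ribonucleotide reductase subunit, -0.09, and Polk, a polymerase that copies past damaged bases, -0.39 (adjusted p = 0.0722). Ddb2 overlaps Acp2 on the opposite strand, which held 7214 counts against 716 for Ddb2, and Rrm2b spans the pseudogene Gm3362 on its own strand, so both are uncertain. Ercc5 was no longer called without BMP2ADV replicate 2 or 3, BMP2ADV20a replicate 2 or 3, BMP2ADV148b replicate 3 or BMP2ADV590 replicate 2 or 3, with adjusted p up to 0.224, and neither limma-voom nor a fit of only the groups compared called it.

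Among the 5 members of metabolism, autophagy and the cell surface, Trp53inp2 rose in BMP2ADV590, the only member called higher against BMP2ADV in any hybrid group. Trp53inp2 (chr2:155381059-155389850), a relative of Trp53inp1 that takes part in autophagosome formation, was at 65.4, 60.1 and 49.9 CPM in BMP2ADV and at 89.3, 92.4 and 90.9 CPM in BMP2ADV590. The BMP2ADV20a libraries held 68.9, 59.9 and 79.5 CPM and the BMP2ADV148b libraries 61.2, 68.7 and 81.0 CPM, so that BMP2ADV590 lay above all other libraries. It rose by 0.63 on the log2 scale in BMP2ADV590 (SE 0.116, edgeR adjusted p = 0.000997).

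The surface genes moved the other way. Epha2 (chr4:141301240-141329384), a receptor tyrosine kinase for ephrins, was at 17.5, 14.4 and 12.7 CPM in BMP2ADV, 9.44, 8.53 and 7.87 CPM in BMP2ADV20a, 11.1, 12.6 and 8.52 CPM in BMP2ADV148b and 9.60, 6.09 and 8.11 CPM in BMP2ADV590. All 9 hybrid libraries lay below those of BMP2ADV, though the nearest, 12.6 CPM in BMP2ADV148b and 12.7 CPM in BMP2ADV, almost touched. Epha2 fell by 0.90 on the log2 scale in BMP2ADV590 (SE 0.203, edgeR adjusted p = 0.00589), and was called whichever library was left out. The value of -0.79 in BMP2ADV20a had an adjusted p of 0.0945, and was called with no filter on low counts or with only the groups compared. Cd80 (chr16:38455561-38496335), a costimulatory ligand for T cells, was at 11.5, 8.16 and 13.4 CPM in BMP2ADV and 8.12, 5.20 and 5.81 CPM in BMP2ADV590, with its nearest libraries almost touching, and fell by 0.77 (SE 0.228, adjusted p = 0.0358). That call was lost without BMP2ADV replicate 1 or 3 or BMP2ADV590 replicate 2 or 3 (adjusted p up to 0.194), and neither limma-voom nor a fit of only the groups compared made it.

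Tigar, which lowers glycolysis, and Dcxr, a carbonyl and xylulose reductase, passed no test. Tigar was at 12.1 to 14.6 CPM in BMP2ADV and 12 to 14.9 CPM in BMP2ADV590. The BMP2ADV20a libraries of Dcxr, at 22.7 to 28.9 CPM, lay above the 13.9 to 22.4 CPM of BMP2ADV (log2 fold change 0.43, edgeR adjusted p = 0.397).

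Between the hybrid groups, Mdm2 and Trp53inp1 separated BMP2ADV148b from the other two. Trp53inp1 was lower by 0.66 in BMP2ADV20a than in BMP2ADV148b on the log2 scale (-0.66, SE 0.0965, edgeR adjusted p = 0.000634) and lower in BMP2ADV590 than in BMP2ADV148b (-0.54, SE 0.0964, adjusted p = 0.00126). Mdm2 was lower by a like amount in both (-0.56, SE 0.0992, adjusted p = 0.00538, and -0.62, SE 0.0995, adjusted p = 0.000405). These 2 members of 32 compare with 0.506% of all tested genes called lower in BMP2ADV20a than in BMP2ADV148b and with 1.97% called lower in BMP2ADV590 than in BMP2ADV148b. The Trp53inp1 differences held whichever library was left out. The Mdm2 difference between BMP2ADV20a and BMP2ADV148b was lost without replicate 1 of either group (adjusted p up to 0.0919).

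BMP2ADV590 and BMP2ADV20a were not told apart by any member in edgeR's test, where 2.17% of all tested genes were called in either direction. There 5 of the 32 had an unadjusted p under 0.05 in edgeR's test, against 1901 of 13229 tested genes. DESeq2 called 1 (Fas) and limma-voom 0. The log2 fold change of BMP2ADV590 against BMP2ADV20a was -0.06 for Mdm2 (95% interval -0.27 to 0.15), 0.01 for Plk2 (-0.17 to 0.20) and -0.08 for Bbc3 (-0.34 to 0.19). The smallest adjusted p-values were those of Fas (-0.47, adjusted p = 0.0678) and Trp53inp2 (0.39, adjusted p = 0.082).

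By edgeR's test, no member with a seed site was called against BMP2ADV in the group of that miRNA. DESeq2, and edgeR with no filter on low counts, called Trp53inp1 lower in BMP2ADV20a. In BMP2ADV20a the 6 members with a miR-20a site had log2 fold changes of 0.05 (Cdkn1a), -0.20 (Ccng1), -0.38 (Trp53inp1), 0.14 (Xpc), 0.24 (Trp53inp2) and -0.30 (Cd80). Plk2, Bbc3 and Mdm2, which were called there, have no such site in the UTR searched. In BMP2ADV148b the 4 members with a miR-148b site had values of -0.27 (Bbc3), 0.28 (Trp53inp1), 0.04 (Zmat3) and -0.13 (Rrm2b). Trp53inp1 has a miR-20a site and a pair of miR-148b sites.

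Trp53, the gene of p53 itself, passed no test. It was at 27.8, 26.9 and 26.8 CPM in BMP2ADV, 25.8, 26.2 and 23.3 CPM in BMP2ADV20a, 26.6, 29.7 and 23.2 CPM in BMP2ADV148b and 25.7, 20.5 and 26.7 CPM in BMP2ADV590. The log2 fold change against BMP2ADV was -0.11, -0.04 and -0.16, with 95% intervals of -0.38 to 0.16, -0.31 to 0.24 and -0.43 to 0.11. These are RNA levels, and p53 is controlled mainly as a protein, which was not measured.

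Of 21 tested regulators of p53, 1 fell in BMP2ADV590 and none in BMP2ADV20a or BMP2ADV148b. That is 4.76% of the regulators, near the 3.89% of all tested genes called lower. The regulator was Cdkn2a, whose products include ARF, which blocks Mdm2. It was at 50.8, 40.9 and 41.0 CPM in BMP2ADV and 36.4, 32.3 and 26.8 CPM in BMP2ADV590 (log2 fold change -0.47, edgeR adjusted p = 0.0178). Counts per gene do not show which transcript of Cdkn2a was lower. Mdm4, the partner of Mdm2, had log2 fold changes of -0.02, 0.04 and -0.08 in BMP2ADV20a, BMP2ADV148b and BMP2ADV590.

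Of 17 further p53 targets that are tested and outside the 32, 3 fell in BMP2ADV590 and none rose, with a median log2 fold change of -0.19. Over all tested genes 3.89% were called lower and 4.37% higher there. Gdf15, a secreted stress cytokine, was at 10.5, 7.97 and 7.43 CPM in BMP2ADV and 3.18, 4.48 and 2.70 CPM in BMP2ADV590 (-1.32, edgeR adjusted p = 0.00428). Its values of -1.18 in BMP2ADV20a and -1.07 in BMP2ADV148b did not pass (adjusted p = 0.0636 and 0.153), although all 9 hybrid libraries lay below those of BMP2ADV. The microtubule gene Psrc1 fell by 0.53 on the log2 scale (adjusted p = 0.00457) and Gpx1, a glutathione peroxidase, by 0.30 (adjusted p = 0.0219). Against BMP2ADV148b, Psrc1 was lower in BMP2ADV590 (-0.43, adjusted p = 0.0309) and the repair gene Ercc4 higher (0.78, adjusted p = 0.0411).

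The 15 listed cell division genes, of a kind that the p21 arm can repress, were all below 0 in BMP2ADV590. Over all tested genes, 6577 of 13229 were below 0. The median log2 fold change of the 15 in BMP2ADV590 was -0.27, 4 fell and none rose, where 3.89% of all tested genes were called lower and 4.37% higher: Ccna2 (-0.39, edgeR adjusted p = 0.0159), Aurka (-0.40, adjusted p = 0.00902), Top2a (-0.28, adjusted p = 0.0295) and Cenpf (-0.27, adjusted p = 0.0367). In BMP2ADV20a 14 of 15 were below 0 with a median of -0.08, in BMP2ADV148b 13 of 15 with a median of -0.08, and none was called in either. Of the 10 mesenchymal markers, 5 were above and 5 below 0 in the same comparison, with a median of 0.05, and 1 was called, Vim (0.29, edgeR adjusted p = 0.00988). Of 4 skeletal muscle markers 1 was tested, Acta1, and it was lower (-0.53, adjusted p = 0.046). Cdkn1a, the gene of p21, had a log2 fold change of -0.13 in BMP2ADV590 and was not called (edgeR adjusted p = 0.372). Whether p21 had a part in the values of the cell division genes was not tested. The part of the cell division genes and of the markers in the changes of the p53 target genes was not tested either.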

How the data were processed

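The deposited values are counts per gene, 1 file per library, which the authors made from QuantSeq 3' mRNA FWD reads with FastQC 0.11.5, STAR 2.5.2a and HTSeq 0.6.0 on GRCm38, per the submitters' processing notes. These name DESeq2 too. Nothing used here states the counting mode, strand setting or annotation release. Whether reads of overlapping genes on opposite strands were kept apart is therefore not known. Because 3' ends are read, a transcript gives about the same counts whatever its length. Lines that name no gene held 52.2% to 54.4% of the records of a library, mainly reads with several alignments, and were left out. Symbols came from GENCODE M21 and matched 47224 of 47643 genes.

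All 12 libraries were fitted in 1 model with a mean per group in edgeR 4.0.16 (R 4.3.3): TMM scaling, filterByExpr, quasi-likelihood F-test, Benjamini-Hochberg adjustment over 13229 genes, threshold 0.05. The common biological coefficient of variation was 0.117. The hybrid groups were each compared with BMP2ADV and with one another, and all groups were tested for any difference. Alternatives were DESeq2 1.42.0, limma-voom 3.58.1, RLE factors, no filter, a filter of 1 CPM in 3 libraries, omission of mitochondrial genes and Gm42418, only the groups of a contrast, a replicate block, and each library left out. The edgeR and limma steps were tested on simulated data.

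The 32 members, their roles and the other lists were chosen with earlier results of these data known. Named with values per library were members called in a pairwise contrast, Cdkn1a, Mdm2, Bax, Bbc3 and Trp53. From the lists of p53 regulators, further p53 targets and cell division genes, up to 5 called genes per contrast were named. Mdm4 and the members not called that the text gives with values per library or singly were chosen after their values were seen. The sequence of miR-590 was not used here.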

Additional observations from a re-analysis of the deposited data

How the results depend on the processing

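The number of p53 target genes called in BMP2ADV20a against BMP2ADV went from 3 to 6 with no filter on low counts (Aen, Epha2 and Trp53inp1 added) and to 5 with only the groups of the contrast (Aen and Epha2 added), and DESeq2 called 4 (Trp53inp1 added). In BMP2ADV590 against BMP2ADV it went from 10 to 12 with no filter (Apaf1 and Pidd1 added). It went to 8 with limma-voom or with only the groups of the contrast (Ercc5 and Cd80 lost). In BMP2ADV590 against BMP2ADV20a it went from 0 to 1 with DESeq2 (Fas) and to 1 with no filter (Trp53inp2). On leaving out 1 library at a time, the count ranged from 0 to 4 in BMP2ADV20a, 0 to 0 in BMP2ADV148b and 6 to 11 in BMP2ADV590 against BMP2ADV, where it was 6 without BMP2ADV replicate 3 or BMP2ADV590 replicate 3. It ranged from 1 to 2 for BMP2ADV20a against BMP2ADV148b, 0 to 1 for BMP2ADV590 against BMP2ADV20a (1 without BMP2ADV20a replicate 3), 2 to 4 for BMP2ADV590 against BMP2ADV148b (4 without BMP2ADV590 replicate 2) and 5 to 8 for any difference. The cause was not tested. No called member changed sign under any alternative. Values near 0 that were not called did on leaving out a library: Cdkn1a in BMP2ADV20a (-0.0097 to 0.10), Bax in BMP2ADV20a (-0.038 to 0.27), BMP2ADV148b (-0.18 to 0.15) and BMP2ADV590 (-0.31 to 0.14), and Mdm2 (-0.084 to 0.13) and Trp53 (-0.12 to 0.052) in BMP2ADV148b.

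Replicate numbers did not pair the libraries: over 18 pairs with the same number, deviations from the group means correlated at -0.113 to 0.0715 (median -0.0172), and 1 library correlated best with its own number. With a replicate block, 2 members were called in BMP2ADV20a (Plk2 at an adjusted p of 0.0556), 0 in BMP2ADV148b and 8 in BMP2ADV590 against BMP2ADV (without Ercc5 and Cd80), 2 in BMP2ADV20a and 2 in BMP2ADV590 against BMP2ADV148b, 0 in BMP2ADV590 against BMP2ADV20a and 7 for any difference. Depth limits scarce members such as Pmaip1, at 121 counts over all libraries.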
